A study of Homo sapiens with 6 samples.

Results

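H3K4me3 was mapped by chromatin immunoprecipitation and sequencing (ChIP-seq) in HL-60, a human promyelocytic leukaemia line, once in parental cells and once in cells in which JMJD3 had been knocked out. These are 2 of the 6 libraries of the study; the others are 2 inputs and 2 H3K27me3 libraries. Both genotypes carry the label myeloblast and were grown in DMEM with serum, with no other treatment named, and the knockout differs from the parental cells only by the label JMJD3 KO. Neither the method of the knockout nor whether it is 1 clone is given in the sources used here. Both H3K4me3 libraries carry the same antibody label. Each genotype is represented by 1 library (n = 1), so there is no replicate check and no p-value, and a difference between the genotypes cannot be told apart from a difference between the libraries.

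H3K4me3 is the trimethyl form of lysine 4 of histone H3. It is laid down by the SETD1 and KMT2 methyltransferase complexes on the nucleosomes that flank the start sites of active and poised genes, most of them in CpG-rich promoters, while the start site itself is often poor in nucleosomes. JMJD3, the product of KDM6B, is a demethylase for another mark, H3K27me3, which Polycomb complexes deposit on silenced genes. In myeloid cells JMJD3 is known as a gene induced by inflammatory signals.

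The deposited lists held 33470 distinct H3K4me3 peaks in parental cells and 24943 in knockout cells. A peak was counted as a promoter peak of a gene when its centre lay within 5 kb of a transcription start site (TSS) of that gene or when it spanned the TSS. By this rule 29733 parental peaks (88.8%) and 23036 knockout peaks (92.4%) were promoter peaks, and 12899 and 11368 genes were marked. In all, 13077 genes were marked in at least 1 list and 11190 in both. The median peak width was 359 bp in the parental and 260 bp in the knockout list, and the narrowest peaks were 146 bp in both. The files give the position of each peak but no read count and no height, so the depth of the libraries is unknown. Width is the extent of a called region and not an amount of the mark. Near the edge of the window, 101 genes of the parental list had their nearest peak centre at 4501 to 5000 bp and 85 had it at 5001 to 5500 bp; in the knockout list these were 76 and 88 genes.

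The label of the cells was compared with marker genes of their type. Of 8 myeloid progenitor markers, 6 had promoter H3K4me3 in both lists: MPO, PRTN3, CD33, SPI1, CEBPE and CEBPA. ELANE and AZU1 were unmarked in both. The summed promoter width of the 8 genes was 21034 bp in the parental list and 10308 bp in the knockout list. Of the epithelial markers, 0 of 4 were marked in either list. The lymphoid markers had 2 marked members of 4 in the parental list and 1 in the knockout list, with 332 and 146 bp in sum. Of 4 erythroid markers, KLF1 alone was marked, with 1288 and 667 bp. PDGFRA was the marked 1 of 3 fibroblast markers, with 767 and 311 bp, and the neuronal markers had 2 marked members of 3 in the parental list and 0 in the knockout list.

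Each of the 12899 parental-marked genes was placed in 1 of 6 classes by what the knockout list held at its promoter. A gene was lost when no knockout promoter peak was listed. It was split when at least 1 of its parental promoter peaks was overlapped by 2 or more knockout peaks, and this class took precedence over the ones based on width. Of the rest, a gene had no overlap when both lists marked it at different places. It was narrowed when the summed knockout width was at most 1/2 of the parental one, widened when it was at least 2 times as large, and kept in between. A gene marked in the knockout list alone was gained.

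The sequences upstream of the genes that lead these classes show what kind of promoter is being described. The widest kept, split, lost and gained genes among those whose RefSeq promoters were used here are given, which leaves out a wider kept and a wider gained gene: UBE2D3, a ubiquitin-conjugating enzyme; FOXP1, a forkhead transcription factor; GMNN, geminin, an inhibitor of replication licensing; and ZNF329, a zinc-finger protein. Each line gives the 250 bases upstream of the annotated start, 5′ to 3′ on the strand of the gene, from RefSeq on GRCh38.p14, with every CpG in capitals.
UBE2D3: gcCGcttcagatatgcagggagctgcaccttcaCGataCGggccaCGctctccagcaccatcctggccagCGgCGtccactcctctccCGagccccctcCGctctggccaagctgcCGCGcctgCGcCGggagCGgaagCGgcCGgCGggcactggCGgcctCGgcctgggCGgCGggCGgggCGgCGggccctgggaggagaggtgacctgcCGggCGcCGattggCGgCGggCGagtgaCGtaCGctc
FOXP1: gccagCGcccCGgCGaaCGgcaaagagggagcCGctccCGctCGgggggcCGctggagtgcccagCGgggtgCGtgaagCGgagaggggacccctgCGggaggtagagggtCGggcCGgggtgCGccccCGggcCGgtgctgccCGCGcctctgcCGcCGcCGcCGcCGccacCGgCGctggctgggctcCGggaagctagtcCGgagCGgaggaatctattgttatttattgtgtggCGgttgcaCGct
GMNN: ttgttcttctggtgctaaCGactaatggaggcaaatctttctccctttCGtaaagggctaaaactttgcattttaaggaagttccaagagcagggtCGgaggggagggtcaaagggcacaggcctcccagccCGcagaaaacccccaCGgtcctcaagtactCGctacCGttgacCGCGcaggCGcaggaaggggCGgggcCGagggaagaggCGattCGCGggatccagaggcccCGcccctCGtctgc
ZNF329: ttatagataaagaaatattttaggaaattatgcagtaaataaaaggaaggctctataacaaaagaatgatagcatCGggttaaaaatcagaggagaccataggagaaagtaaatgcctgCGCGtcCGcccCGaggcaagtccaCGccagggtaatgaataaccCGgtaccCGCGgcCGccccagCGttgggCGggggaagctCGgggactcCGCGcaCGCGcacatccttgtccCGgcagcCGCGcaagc
The printed bases hold 31 CpGs for UBE2D3, 31 for FOXP1, 17 for GMNN and 20 for ZNF329. The kept and split examples are the denser ones among these 4.

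**Figure D1:**
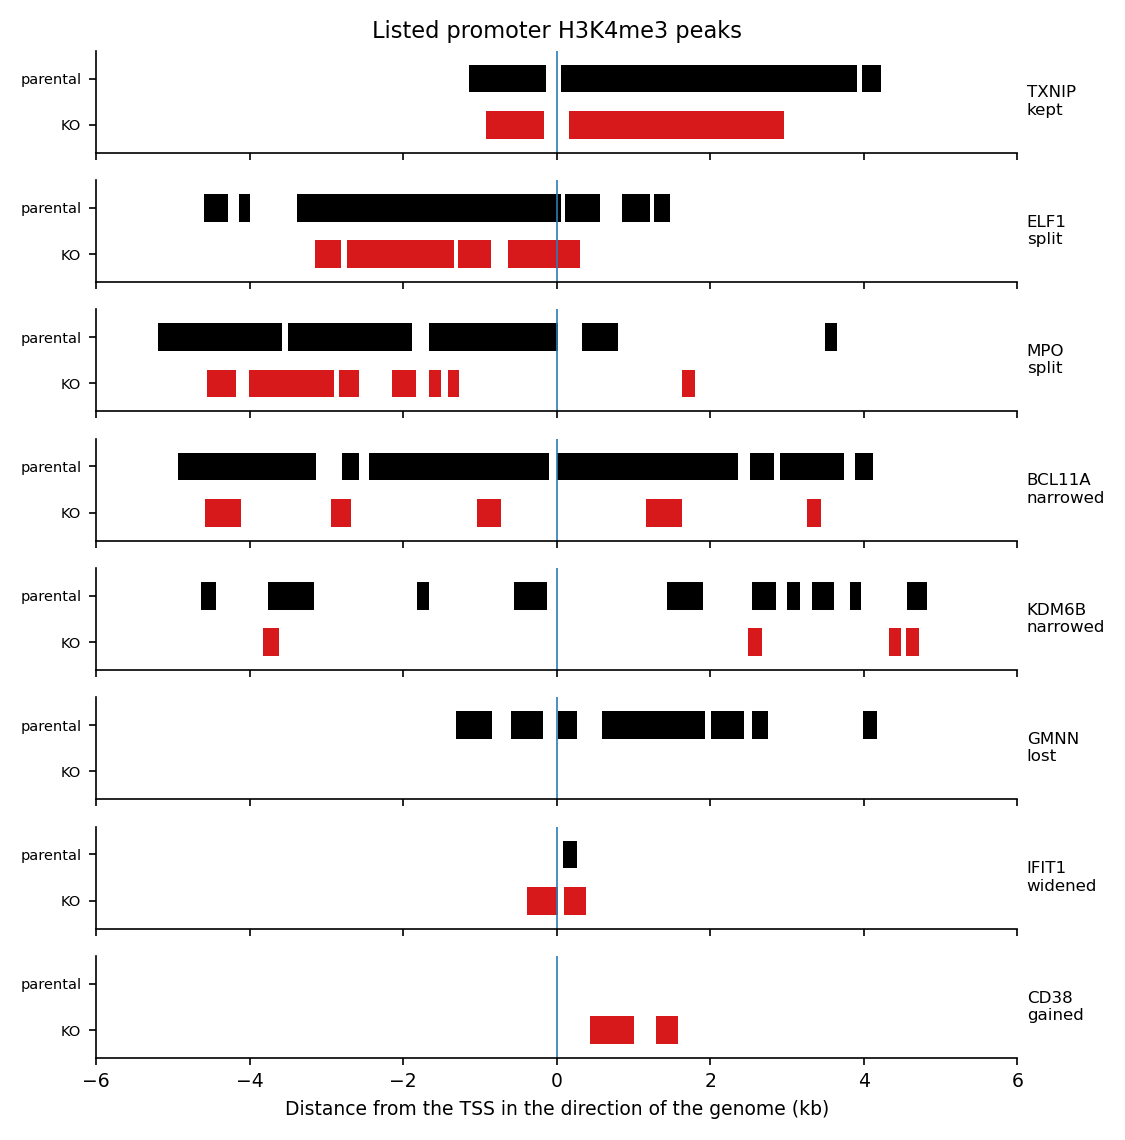
Promoter H3K4me3 peaks of 8 genes, drawn as bars within 6 kb of a TSS from left to right along the chromosome (x axis, kb from the TSS), parental in black and knockout in red; 1 library per genotype. TXNIP has 3 parental and 2 knockout blocks at about the same places, ELF1 and MPO have parental blocks overlapped by several knockout blocks, GMNN has 7 parental peaks and none in the knockout, and CD38 has 2 knockout peaks and none in the parental list.

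Across all genes, most promoters had H3K4me3 within 5 kb in both lists, but over less length in the knockout list. The split class was the most common, with 5540 genes (42.9%), followed by narrowed with 3185 (24.7%) and kept with 2147 (16.6%). This order depends on the rules: with neighbouring peaks joined, kept genes were the most common (3768 against 3599 split), with peaks of at least 300 bp narrowed (3938) and lost (3564) genes outnumbered split ones (1544), and with peaks that span the TSS only, 2229 of 3090 genes (72.1%) were lost. No knockout promoter peak was listed for 1709 genes (13.2%). Another 286 genes (2.22%) were marked at places that did not overlap, and 32 (0.248%) were widened. Of the 13077 genes marked in either list, 178 (1.36%) were gained. Summed width was lower in the knockout library for 10736 of the 11190 genes marked in both, 95.9%, and the median log2 ratio of knockout to parental width was -1.01, with quartiles of -1.49 and -0.61. These shares are the background against which gene groups are read below. They count genes, and 4488 genes share all of their peaks with another gene, so there were 10717 distinct peak sets.

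The classes differed in how much width was left. Kept genes had a median of 1150 bp in the parental and 814 bp in the knockout list, and the median share of width left per gene was 68.6%. Split genes were wider to begin with, at a median of 2169.5 bp, and had 1149 bp in the knockout, with a median of 53.9% left per gene. Narrowed genes had medians of 1470 and 421 bp, with a median of 31.5% left per gene. Lost genes had a parental median of 499 bp and gained genes a knockout median of 212 bp. The limit between kept and narrowed cuts through a continuous range: 714 genes lay within 0.1 below the log2 limit of -1 and 689 within 0.1 above it.

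The class of a gene followed its parental width closely. Of the 684 genes with less than 300 bp of parental promoter H3K4me3, 72.5% were lost; of those with 300 to 599 bp, 49.8%; of those with 600 to 1199 bp, 18.9%; and of those with 1200 to 2399 bp, 3.02%. Among the 2633 genes with 2400 to 4799 bp the lost share was 0.228%, and among the 210 with 4800 bp or more no gene was lost. The split share ran the other way. It was 2.36% at 300 to 599 bp, 18.6% at 600 to 1199 bp, 49.1% at 1200 to 2399 bp, 79.0% at 2400 to 4799 bp and 93.3% above that. Among genes still marked, the median log2 width ratio was 0.16 for the 188 genes under 300 bp, a median of 112% of the parental width per gene. No listed peak was narrower than 146 bp, so a gene of this class that was still marked could lose little width. Of its 684 genes 1 was narrowed and 27 were widened. The median ratio was -0.69 for 300 to 599 bp, -0.96 for 600 to 1199 bp, -1.05 in both of the next classes and -1.13 for the widest. The narrow promoters were thus often without a listed knockout peak, while the wide ones were nearly all still marked, over less length. The number of peaks need not rise in a split gene: its median was 3 in both lists. A wider parental promoter also offers more length in which pieces can fall.

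**Figure D2:**
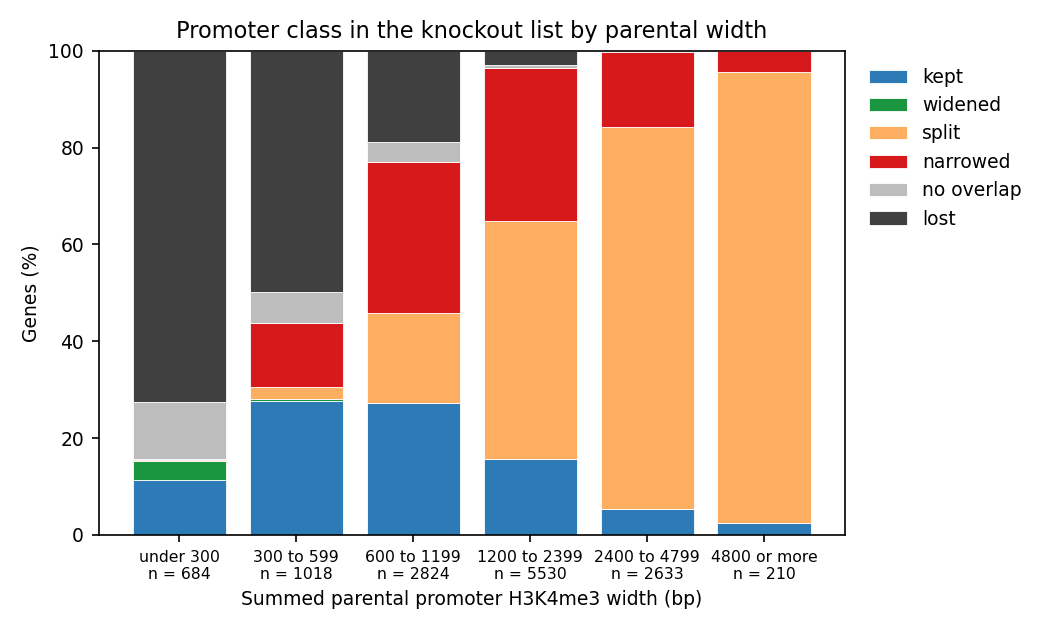
Share of genes in each class (y axis, percent of parental-marked genes) by summed parental promoter width (x axis, bp), with the number of genes under each bar. The lost share is 72.5% in the narrowest class and the split share 93.3% in the widest.

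Splitting was also counted on the peaks themselves, without genes. Of the 29733 parental promoter peaks, 44.2% were overlapped by no knockout peak, 39.6% by 1 and 16.2% by 2 or more (95% Wilson interval 15.7 to 16.6%, counting error only); the largest number was 8. The mirror count was lower: of 23036 knockout promoter peaks, 7.72% (7.38 to 8.07%) were overlapped by 2 or more parental peaks and 8.76% by none. At equal width the difference went in the same direction for wide peaks. Of parental peaks of 600 to 1199 bp, 32.3% were overlapped by 2 or more knockout peaks, against 22.6% in the mirror count, and at 1200 to 2399 bp the shares were 72.0% and 38.2%. For peaks of 300 to 599 bp the order was the other way, with 6.0% and 10.6%. By the mirror rule 2172 genes had a knockout peak that joined several parental ones, against 5540 split genes, and 1507 genes had both. Knockout peaks covered 40.2% of the parental promoter length, and parental peaks covered 84.0% of the knockout length, so the knockout peaks lay mostly inside the parental ones.

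The gaps inside split peaks were short. The 4802 split parental peaks, with a median width of 1074 bp, held 6279 gaps between neighbouring knockout pieces. The median gap was 140 bp (quartiles 83 and 227.5 bp, range 51 to 1865 bp), and 83.4% were under 300 bp. The centres of neighbouring pieces were a median of 484 bp apart. In 686 split peaks at least 1 annotated TSS lay between the outer ends of the pieces. Of these 843 TSSs, 270 fell in a gap, 32.0% (29.0 to 35.3%). Over all 4802 split peaks, gaps made up 23.6% of the length between the outer ends. That share was not computed for the 686 peaks alone, so the TSS share has no matched comparison. When peaks of each list less than 300 bp apart were joined first, 2667 of the 16996 joined parental promoter peaks (15.7%) were overlapped by 2 or more joined knockout peaks, against 4802 before joining. The mirror count was 192 of 15639, 1.23%, and the number of split genes went from 5540 to 3599.

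Around the start site the width was not lost evenly. Of parental-marked genes, the 15607 distinct TSSs with a promoter peak in either list were pooled. The share covered by a peak was taken at each distance, in either direction, since the files give no strand. At the TSS itself 21.8% were covered in parental and 7.59% in knockout cells, a ratio of 0.348. Parental coverage reached its maximum of 55.2% at 400 bp, and knockout coverage its maximum of 28.1% at 500 bp. At 800 bp the ratio was 0.540, and at 2000 bp, where 12.5% and 5.26% were covered, it was 0.421. In relative terms the knockout list was thus shortest at the start site and far out, and closest to the parental one on the flanks. The maximum lay at 350 bp in the parental and 400 bp in the knockout list for kept genes, at 450 and 600 bp for split genes and at 350 and 450 bp for narrowed genes. At the TSS, coverage was 17.9% and 9.99% in kept genes, 25.9% and 10.7% in split genes and 22.2% and 4.48% in narrowed genes. Lost genes had lower parental coverage than these 3 classes, with 13.8% at the TSS and a maximum of 27.7% at 250 bp.

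**Figure D3:**
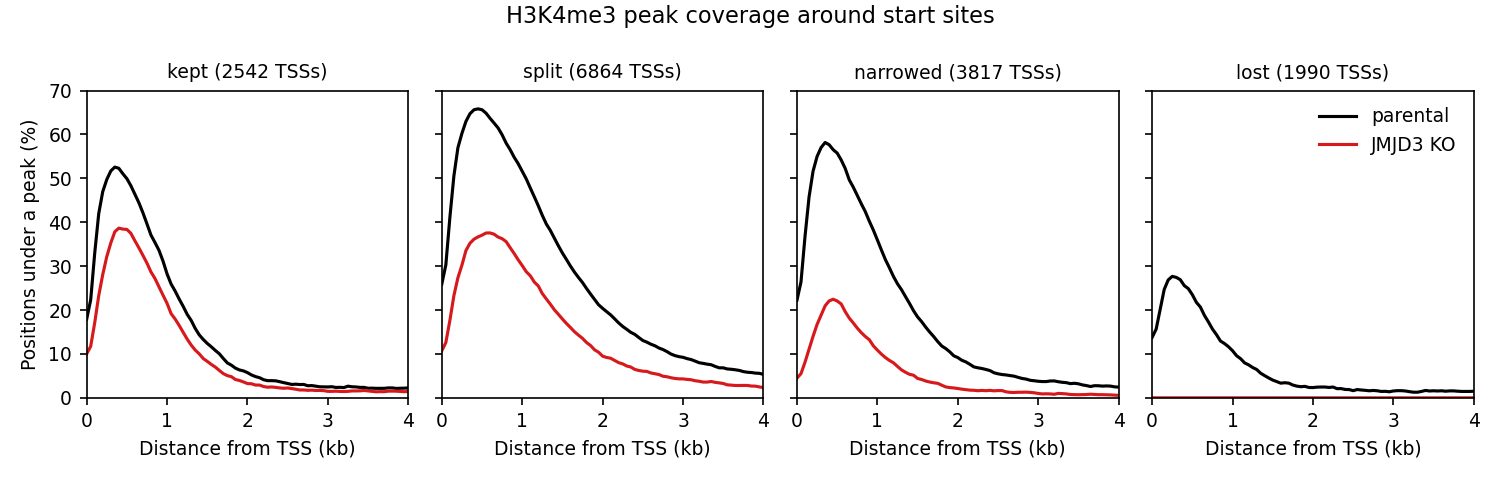
Share of TSSs covered by an H3K4me3 peak (y axis, percent) at each distance from the TSS (x axis, kb, both directions pooled), parental in black and knockout in red, for kept, split, narrowed and lost genes. The knockout maximum lies farther out than the parental one in the first 3 panels, and the dip at the TSS is seen in both genotypes.

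Single promoters show these forms. A window of 1 kb in place of 5 kb leaves out wide parental peaks whose centres lie farther from the TSS; with it the knockout width was the larger one for LMNA, SLC3A2, BCL11A, CCND3, CD4, CSF2RB, ERCC5, GAPDH, HSPE1, IKBKG and TNF, all of which had the smaller width in the knockout list with 5 kb. KDM6B, the targeted gene, on chromosome 17, had 10 parental peaks that added up to 3041 bp and 4 knockout peaks with 710 bp, and was narrowed, with a log2 ratio of -2.10. Its parental peak nearest the TSS at position 7743234 (hg19) ran from 7742683 to 7743110, and no knockout peak was listed there. The nearest of the 4 knockout peaks had its centre 2583 bp from that TSS. Promoter peaks say nothing about a disrupted reading frame, so this is no check of the knockout.

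Among kept genes, TXNIP, which encodes the thioredoxin-interacting protein, had a parental peak of 3851 bp (chr1:145438497-145442347) and a knockout peak of 2803 bp (chr1:145438597-145441399). Its whole promoter went from 5106 to 3564 bp. The widest kept promoter was that of TRIB1, a pseudokinase that promotes degradation of C/EBP proteins, with 7842 and 7179 bp in 4 peaks each. UBE2D3 followed with 7182 and 4414 bp and LMNA, encoding lamin A/C, with 7166 and 5180 bp. EPC1, a subunit of the NuA4 acetyltransferase complex, had 4438 and 2743 bp. BSG, encoding basigin, had 4938 and 2551 bp, close to the limit of the narrowed class.

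Among split genes, ELF1, an ETS family transcription factor, had a parental peak of 3432 bp (chr13:41553038-41556469) overlapped by 4 knockout peaks of 340, 1392, 428 and 935 bp. Its summed width over all its start sites was 7867 bp in 12 peaks and 5281 bp in 9. FOXP1 was the widest split gene, with 9862 bp in 19 parental peaks and 3019 bp in 10 knockout peaks. SLC3A2, the heavy chain of amino acid transporters, had 9626 and 4697 bp. MPO, the granule enzyme myeloperoxidase, had 3 parental blocks of 1606, 1612 and 1687 bp and 7 knockout peaks, of which the widest was 1112 bp. Its knockout peaks left the stretch from 56357025 to the TSS at 56358296 on chromosome 17 uncovered, where the parental list had a peak that spans the TSS.

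Among narrowed genes, BCL11A, a zinc-finger repressor, had 8090 bp in 7 peaks and 1676 bp in 5, a log2 ratio of -2.27. With a window of 1 kb BCL11A had no parental peak and was gained. LPXN, the adaptor leupaxin, had 5287 and 1003 bp.

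GMNN led the lost genes with 3273 bp in 7 parental peaks spread from 24773851 to 24779323 on chromosome 6, and no knockout promoter peak. BCOR, a corepressor of the variant Polycomb complex, had 2730 bp, EMP3, a membrane protein, 2723 bp, and HCFC1, the host cell factor that works with SETD1 and KMT2 complexes, 2403 bp shared with TMEM187 and HCFC1-AS1. BCOR and HCFC1 lie on chromosome X. Lost promoters this wide were rare, with 6 among the 2633 genes of 2400 to 4799 bp.

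Among genes marked at different places, CELF2, an RNA-binding protein, had 2032 bp in 8 parental peaks and a single knockout peak of 194 bp. PDE4D, a cAMP phosphodiesterase, had 1986 and 146 bp, and PIEZO1, a mechanosensitive channel, 1926 and 160 bp. RAD17, a DNA damage checkpoint factor, had 1695 and 426 bp. Each of these knockout peaks lay inside the 5 kb window but outside every parental promoter peak of its gene.

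Gains were few and narrow. ZNF329 had 4 knockout peaks with 1020 bp, CD38, an NAD-consuming ectoenzyme, 2 peaks of 573 and 278 bp, and SERPINB2, an inhibitor of plasminogen activators, 3 peaks with 646 bp. The microRNA gene MIR3620 had 1 peak of 1039 bp. P3H3, a prolyl hydroxylase of collagen, had 721 bp in 2 peaks. Of the widened genes, IGLL1, a component of the surrogate light chain, went from 677 bp in 2 peaks to 1637 bp in 5. IFIT1, an interferon-induced RNA-binding protein, went from 184 bp in 1 peak to 675 bp in 2, of which 1 spans its TSS. EIF2S1, the alpha subunit of eIF2, and ATP6V1D share their peaks and went from 413 to 855 bp. With a window of 1 kb IGLL1, EIF2S1 and ATP6V1D had the smaller width in the knockout list, and with 10 kb MIR3620 and SERPINB2 had it, since parental peaks farther out then entered.

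The lost share differed between chromosomes. On the autosomes it ran from 6.18% on chromosome 18 to 22.8% on chromosome 5, and on chromosome X it was 46.3% (163 of 352 genes, 41.2 to 51.5%). Parental width differed as well, with a median of 785 bp on X, 1241 bp on chromosome 5 and 1592 bp on the others. Within genes of 600 to 1199 bp, 44.9% were lost on X, 32.1% on chromosome 5 and 16.6% elsewhere; within 1200 to 2399 bp, 20.6%, 11.9% and 2.47%. Under 300 bp the shares were 70.7%, 71.0% and 72.7%. The lost share on both chromosomes was therefore above that of the others from 600 to 2399 bp and not among the narrowest promoters; at 300 to 599 bp it was so on X (64.7%) and not on chromosome 5 (41.3%), against 49.0% elsewhere. At 2400 to 4799 bp 4 of 21 genes were lost on X, 0 of 84 on chromosome 5 and 2 of 2528 elsewhere. Of those on X, HCFC1, TMEM187 and HCFC1-AS1 share all their peaks. The part of chromosome copy number in any of these results was not tested. Without these chromosomes 1423 of 12008 genes were lost, 11.9%.

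**Figure D4:**
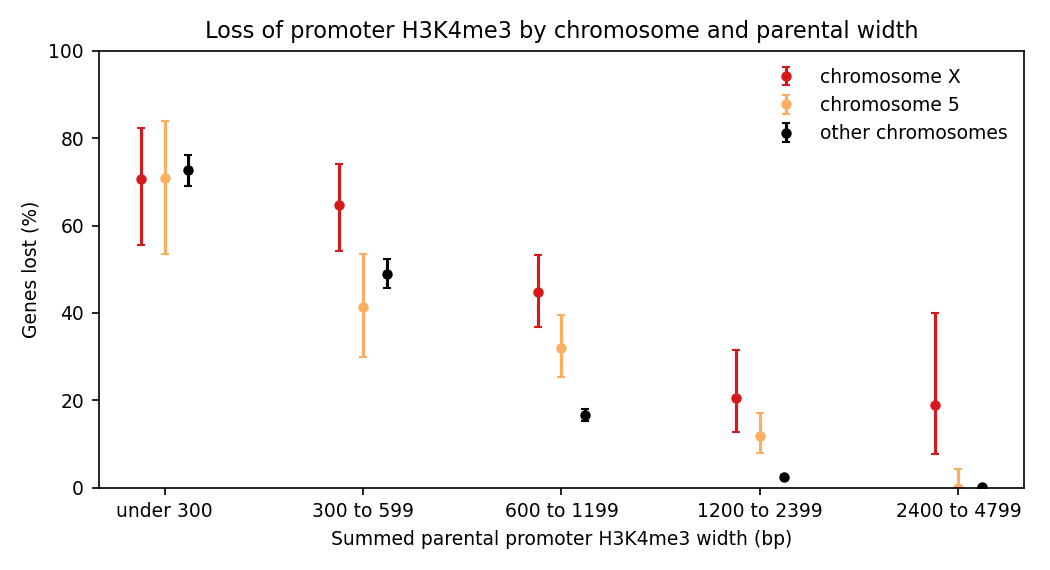
Share of parental-marked genes that were lost (y axis, percent, with 95% Wilson intervals that cover counting error only) by parental width (x axis, bp) for chromosome X, chromosome 5 and the other chromosomes. The 3 points coincide under 300 bp and stand apart at 600 to 1199 bp, at 44.9, 32.1 and 16.6%.

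Genes with a protein-coding transcript were lost in 12.3% of cases (11.7 to 12.9%, 11047 genes). Of genes with non-coding transcripts alone, 18.8% (17.1 to 20.7%, 1852 genes) were lost. The median parental widths were 1558 bp for the coding and 1512 bp for the non-coding genes. A median does not show the share of narrow promoters, and the lost shares were not compared within ranges of width. The part of width in this difference was therefore not tested. The split shares were 43.1% and 41.8%. Of the 178 gained genes 56 were non-coding, beside 1852 of the 12899 parental-marked genes.

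CpG content, which the classes did not use, was read from 300 bp RefSeq promoters of coding genes. The median promoter of a marked gene held 26 CpGs, against 14 over all RefSeq promoters, and 84.4% had an observed to expected CpG ratio above 0.6, against 48.8%. The share above that ratio was 84.8% in kept, 88.8% in split, 85.1% in narrowed, 74.3% in non-overlapping, 71.1% in lost, 55.2% in gained and, over 22 promoters, 68.2% in widened genes. Among genes of 600 to 1199 bp of parental width it was 85.1% in kept, 85.5% in split, 83.4% in narrowed and 78.3% in lost genes, and at 1200 to 2399 bp 88.6, 89.6, 87.0 and 82.1%. The share in lost genes was below that in kept, split and narrowed genes, and the difference was smaller within these ranges of width.

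Short motifs were searched on both strands of the same 300 bp. None of the 5 motifs contains another. The ETS-type motif CCGGAAG was in 10.3% of all promoters, 20.8% of those of marked genes, 20.9% of kept, 23.5% of split, 21.5% of narrowed, 12.5% (10.7 to 14.6%) of lost and 4.17% of gained ones. At a parental width of 600 to 1199 bp it was in 19.4% (16.3 to 22.8%) of kept, 25.9% (21.9 to 30.3%) of split and 14.0% (10.8 to 18.0%) of lost promoters. At 1200 to 2399 bp it was in 25.6% (22.4 to 29.1%) of kept and 19.5% (13.5 to 27.4%) of lost ones. In both ranges of width the intervals of kept and lost promoters overlap. The GC box GGGCGG was in 45.0% of all, 72.1% of split and 64.1% of lost promoters. CCGGAAG and GGGCGG each contain a CpG, and the part of CpG content in their differences between classes was not tested. The TATA-type motif TATAAA was in 11.5% of all, 5.60% of split and 6.39% of lost promoters, and CCAAT in 34.6%, 38.5% and 32.3%. The GATA-type motif GATAA was in 22.7% of all, 12.5% of split and 14.1% of lost promoters. A match describes the letters in this window and not a bound site.

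H3K27me3, the mark that JMJD3 removes, was read from the other pair of libraries of the study, which carry H3K27me3 in their titles but H3K4me3 in their antibody label; the title was followed. Few H3K4me3-marked genes had a promoter H3K27me3 peak: 1.62% in parental and 1.41% in knockout cells. In lost genes the shares were 3.10% (2.38 to 4.03%) and 1.93% (1.38 to 2.70%). Of the 1709 lost genes, 16 had H3K27me3 in both lists, 37 in the parental list alone and 17 in the knockout list alone. Over all 13077 genes with promoter H3K4me3 in either list, these counts were 115, 97 and 70. These 17 are 0.995% (0.622 to 1.59%) of the lost genes, beside 0.535% (0.424 to 0.676%) of all marked genes with H3K27me3 in the knockout list alone. At a parental width of 600 to 1199 bp this knockout-only share was 1.13% in lost, 1.15% in split, 0.681% in narrowed and 0.778% in kept genes. At 300 to 599 bp it was 1.58% in lost and 1.06% in kept genes, and at 1200 to 2399 bp 0 of 167 lost genes had it. The parental and knockout shares were 2.25% and 3.93% in gained genes, and 0.812% and 0.903% in split genes. Among the 17 genes, named after their values were seen, are CREB5, a CRE-binding transcription factor, with 667 bp of H3K4me3 lost and 6027 bp of H3K27me3 in the knockout list, and KCNN1, a potassium channel, with 1036 and 863 bp.

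Gene lists were then compared with the shares over all genes: 16.6% kept, 42.9% split, 24.7% narrowed, 13.2% lost, with a median parental width of 1552 bp. Where the share in a range of width is given beside a list, the range follows the median of the list. Its members can lie in other ranges, so such a share is not a matched comparison. Most genes of the proteasome, the spliceosome and the nuclear pore were split, and the median parental width of each of these lists was above that of all genes; of all genes of 1200 to 2399 bp, 49.1% were split. Of 32 proteasome subunit genes 22 were split, 5 kept and 4 narrowed, with a median width of 1899.5 bp and a median log2 ratio of -0.86. PSMA1, a subunit of the core ring, had 9 peaks in both lists, with 6354 and 3812 bp. PSMB6, a catalytic subunit on chromosome 17, was the lost member, with 465 bp. Of 32 spliceosome genes 23 were split, 2 kept, 6 narrowed and 1 lost (PRPF8, the core factor of the U5 particle, 1091 bp, also on chromosome 17). U2AF1, which reads the 3′ splice site, was kept, going from 3256 to 2459 bp, while SF3B3 was split from 4555 to 1590 bp. Of 26 nuclear pore genes 17 were split, 1 kept, 7 narrowed and 1 lost, which was NUP88 with 1266 bp.

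The next 3 lists, with median parental widths of 2069.5, 2186 and 2378 bp, had no lost member, beside 3.02% lost among all genes of 1200 to 2399 bp. Of 20 aminoacyl-tRNA synthetase genes 13 were split, 4 kept and 3 narrowed. Of 22 genes of endoplasmic reticulum chaperones and the unfolded protein response 13 were split, 3 kept and 6 narrowed; HYOU1, a chaperone, went from 1313 to 1139 bp. Of 17 marked heat shock genes 12 were split, 2 kept and 3 narrowed. HSPD1 and HSPE1, the mitochondrial chaperonin pair, share a promoter that went from 5852 bp in 5 peaks to 2967 bp in 9. HSPE1 was gained with a window of 1 kb. HSPA4, a cofactor of HSP70 on chromosome 5, had 1775 bp in 5 peaks and a single knockout peak of 153 bp.

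Of 19 parental-marked glycolysis genes 13 were split, 0 kept, 5 narrowed and 1 lost, with a median log2 ratio of -1.06. GAPDH went from 3737 to 2770 bp, a ratio of -0.43, and ENO1, encoding enolase, from 5418 to 2241 bp. PGK1, phosphoglycerate kinase on chromosome X, went from 2514 to 435 bp. The hexokinases, which start the pathway, went different ways: HK1 was lost (715 bp), HK2 narrowed from 1791 to 610 bp, and HK3 gained a peak of 510 bp. Of 34 complex I genes of the respiratory chain 14 were split, 8 kept, 11 narrowed and 1 lost (NDUFA8, 655 bp). NDUFB3 kept its width, with 2116 and 2211 bp. NDUFA1, on chromosome X, went from 2557 to 386 bp.

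Cholesterol synthesis had the median log2 width ratio closest to 0 of the 28 lists, at -0.54, and 4 of its 19 members marked in both lists lay below the median of all genes. Of 22 parental-marked members 10 were split, 5 kept, 4 narrowed and 3 lost. FDPS, farnesyl diphosphate synthase, went from 1516 bp to 2171 bp with the window of 5 kb but was lost with 1 kb, and DHCR7, the last reductase of the pathway, from 3256 to 2253 bp. Among the lost members were MVD, a decarboxylase of the mevalonate pathway, with 820 bp and CYP51A1, a sterol demethylase, with 162 bp. SREBF2 and SREBF1, the transcription factors of the pathway, were narrowed, from 2305 to 952 bp and from 1366 to 357 bp.

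Of 26 lysosome genes 9 were split, 5 kept, 9 narrowed and 3 lost. NPC1, the cholesterol exporter, had 1327 and 1427 bp and GUSB, beta-glucuronidase, 1413 and 1349 bp, whereas GLA (X, 1150 bp) and CTSL (440 bp) were among the lost ones. Of 41 DNA repair genes 14 were split, 9 kept, 15 narrowed, 1 non-overlapping and 2 lost. The lost ones were PMS2, a mismatch repair endonuclease, with 1780 bp and XRCC4, an end-joining factor on chromosome 5, with 1142 bp. ERCC5, a nuclease of excision repair, went from 2065 to 1904 bp. PMS2 has near-identical pseudogene copies, so its peaks are uncertain.

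Cell cycle and replication genes were split in 23 of 45 cases, kept in 5, narrowed in 12, non-overlapping in 2 and lost in 3. PCNA, the sliding clamp, went from 4 peaks with 4407 bp to 7 with 2766 bp. CCND3, a D-type cyclin, went from 6940 to 3535 bp with 11 peaks in both lists, and CDK4, its partner kinase, from 3223 to 954 bp. Besides GMNN, CCNB1 (1022 bp, chromosome 5) and POLA1 (231 bp, chromosome X) were lost. CDT1, the licensing factor that geminin binds, had 1161 bp in the parental list and a separate knockout peak of 202 bp. Of 32 apoptosis regulators 21 were split, 6 kept, 3 narrowed and 2 lost (XIAP, 868 bp, X, and TNFRSF10B, 501 bp). BCL2 went from 4378 to 3180 bp and BIRC5, survivin, from 1136 to 1055 bp, while CDKN2C, a CDK inhibitor, had 3630 bp in 6 peaks and 279 bp in 1, a log2 ratio of -3.70.

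Genes of the H3K4 methylation machinery itself remained marked in all 22 cases, with 15 split, 1 kept and 6 narrowed and a median log2 ratio of -0.84. Their median parental width was 1803 bp, and of all genes of 1200 to 2399 bp only 3.02% were lost. SETD1B and KMT2D, which are methyltransferases, went from 5767 to 3470 bp and from 4105 to 2955 bp. SETD1A went from 1661 to 319 bp and MEN1, the menin adaptor, from 1239 to 378 bp. Of 32 genes of Polycomb complexes and H3K27 demethylases 14 were split, 6 kept, 10 narrowed and 2 lost, with a median log2 ratio of -1.18. KDM6A, the X-linked relative of JMJD3, went from 3593 to 726 bp, a ratio of -2.31 close to that of KDM6B. CBX2, which reads H3K27me3, was lost with 1771 bp, as was BCOR. Of 30 Mediator genes 16 were split, 6 kept, 6 narrowed and 2 lost, which were MED12 (909 bp, X) and MED11 (387 bp); MED1 had 1067 and 1128 bp.

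Myeloid transcription factors had the widest promoters of any list, with a median of 4006 bp, and 20 of the 24 marked ones were split, 1 kept and 3 narrowed. That share, 83.3%, stands beside 79.0% split among all genes of 2400 to 4799 bp. RUNX1 went from 7578 bp in 14 peaks to 3734 bp in 11. MYC had 7422 and 6598 bp, in 2 and 3 peaks, a ratio of -0.17. SPI1, which encodes PU.1, went from 3908 to 2554 bp, CEBPA from 4052 to 2157 bp and CEBPE from 4655 to 1854 bp. ETV6 was narrowed from 3333 to 1015 bp and IRF1, on chromosome 5, from 1218 to 344 bp.

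Genes of mature myeloid cells had narrower promoters than the myeloid transcription factors. Of 12 marked granule and NADPH oxidase genes 5 were split, 2 kept, 1 narrowed and 4 lost. The lost ones were RNASE2 (449 bp), BPI (364 bp), CTSG (312 bp) and CAMP (283 bp), all under the all-gene median width. SRGN, the granule proteoglycan, went from 3228 to 1956 bp, and PRTN3, proteinase 3, from 389 to 331 bp. MMP9, a granule metalloproteinase, gained a peak of 377 bp, though parental peaks entered with a window of 10 kb. Of 18 marked surface receptors 5 were split, 2 kept, 6 narrowed, 1 non-overlapping and 4 lost (FPR1, SIGLEC5, FLT3 and ITGAM, none above 332 bp). CSF2RB, the shared receptor chain for GM-CSF, went from 1265 to 1116 bp, and CD33 went from 2506 to 862 bp. CD38, CSF1R (188 bp) and FCGR1A (154 bp) were gained.

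Interferon-stimulated genes were lost in 8 of 20 marked cases, with a median parental width of 645 bp. For comparison, 18.9% of all genes of 600 to 1199 bp and 49.8% of those of 300 to 599 bp were lost. The lost members were IFITM1 (2205 bp in 6 peaks) and its neighbour IFITM2 (1019 bp), IFI6 (772 bp), OAS3 (697 bp), IFIT3 (562 bp), USP18 (534 bp), IFIT5 (452 bp) and MX1 (231 bp). The other marked ones comprised 4 kept, 3 split, 3 narrowed, 1 non-overlapping and IFIT1, which was widened. ISG15, a ubiquitin-like modifier, went from 502 to 408 bp. IFITM1 and IFITM2 are close in sequence, so how their peaks are divided is uncertain. Of 16 marked antigen presentation genes 11 were split, 1 kept, 1 narrowed, 1 non-overlapping and 2 lost, among them HLA-DMB with 151 bp. B2M, the light chain of class I molecules, went from 3948 to 1374 bp, and TAP2, a peptide transporter, from 4515 to 1167 bp.

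The genes of the NF-kB pathway, which responds to inflammatory signals, had 0 lost among 21 marked, with 9 split, 4 kept, 6 narrowed and 2 non-overlapping. Their median parental width was 2010 bp, beside 3.02% lost among all genes of 1200 to 2399 bp. TNF had a single parental peak of 2327 bp and 4 knockout peaks with 1375 bp. With a window of 1 kb, or with peaks that span the TSS only, TNF had no parental peak and was gained. CXCL8, the neutrophil chemokine interleukin-8, was narrowed from 2780 to 494 bp, and NFKBIA, the inhibitor, went from 2217 to 1118 bp. IRAK1 and IKBKG, both on chromosome X, were the non-overlapping ones. Of 24 immediate early genes 13 were split, 4 kept, 4 narrowed, 1 non-overlapping and 2 lost, which were EGR1 (886 bp, chromosome 5) and FOSL1 (732 bp). MCL1 went from 4619 to 4066 bp, a log2 ratio of -0.18, while KLF6 went from 1934 to 196 bp and KLF2 from 1587 to 187 bp. Members of this list thus lay at both ends of the range.

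Genes of other lineages were mostly unmarked, and most lists of this kind had a median parental width below that of all genes. Of 39 HOX genes 13 were marked, with a median of 564 bp, and 7 of them were lost, 1 split, 2 kept, 2 narrowed and 1 non-overlapping. That lost share, 53.8%, stands beside 49.8% lost among all genes of 300 to 599 bp. HOXB5 (1196 bp) and HOXC10 (614 bp) were lost, as were HOXA7 and HOXA9, which share 564 bp. Of 60 developmental transcription factors 14 were marked in parental cells, of which 7 were lost, 5 split and 2 narrowed. Their median parental width was 950.5 bp, and of all genes of 600 to 1199 bp 18.9% were lost. Not all members lay in that range, so these shares are not matched for width. DLX1 (987 bp), IRX3 (914 bp) and TWIST1 (876 bp) were lost, while IRX5, a neighbour of IRX3 on chromosome 16, was split from 3846 to 1437 bp. Of 7 marked lymphoid genes 3 were lost, 1 split, 1 narrowed and 2 non-overlapping; CD4, which monocytes also express, went from 4144 to 2109 bp. Of the erythroid and megakaryocyte genes KLF1 was kept and EPOR narrowed (1161 to 441 bp), and TAL1 (382 bp) and ITGA2B (155 bp) were gained. Of the 3 marked epithelial, fibroblast and neuronal genes MAP2 (369 bp) and TUBB3 (170 bp) were lost and PDGFRA was narrowed.

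**Figure D5:**
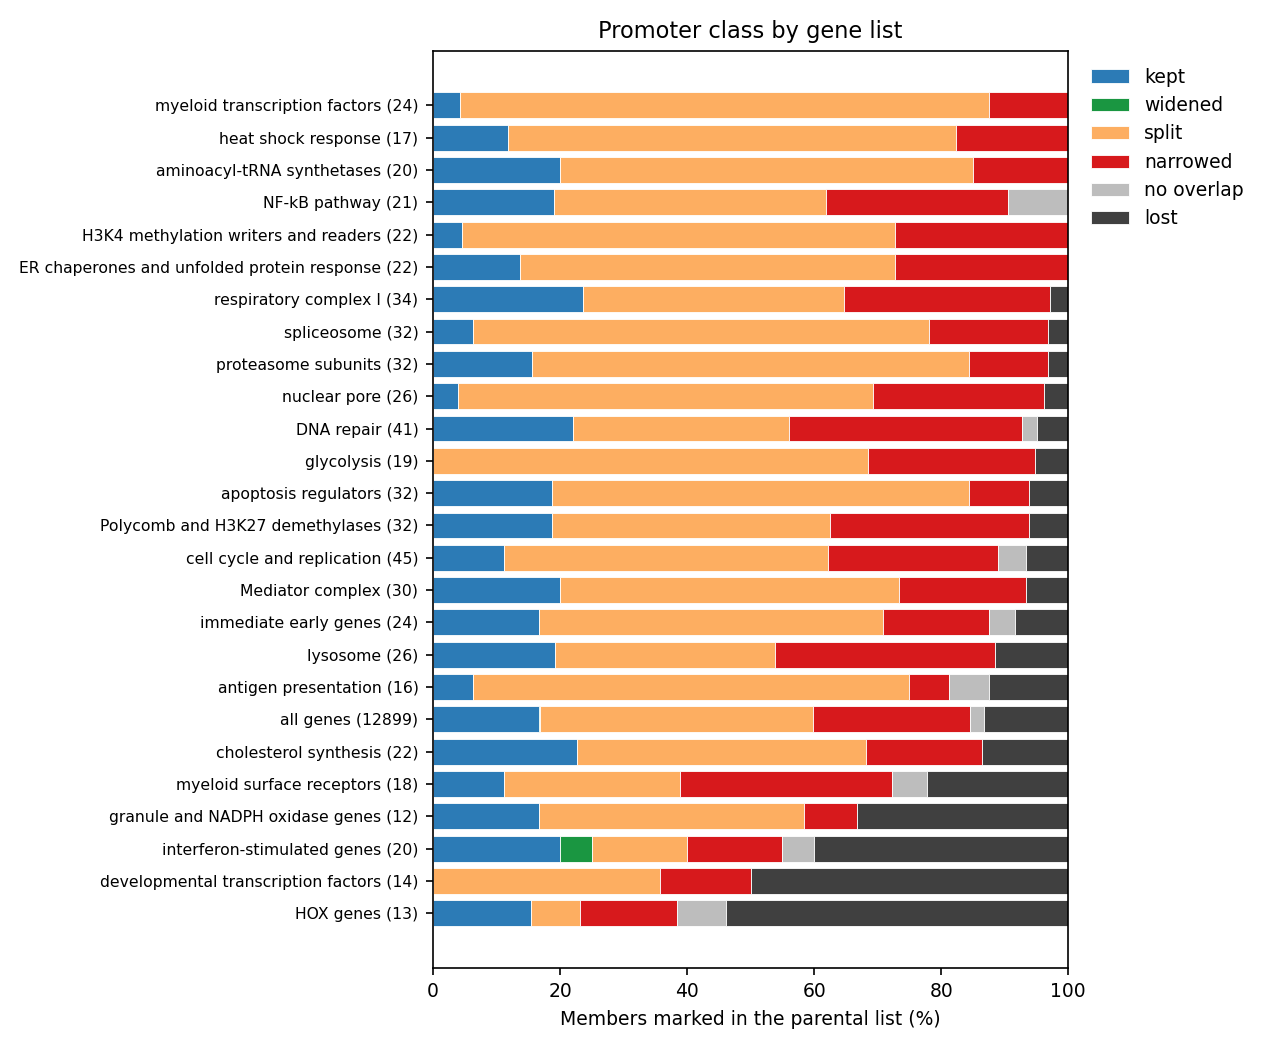
Share of parental-marked members in each class (x axis, percent) for the gene lists with at least 10 marked members (y axis, with the number marked), beside the same over all genes. Myeloid transcription factors have the largest split share, 20 of 24, and the HOX genes the largest lost share, 7 of 13. The median parental widths of these 2 lists are 4006 and 564 bp. Among all genes, 79.0% were split at 2400 to 4799 bp and 49.8% were lost at 300 to 599 bp.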

How the data were processed

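Each peak list deposited by the authors is joined to RefSeq transcripts, 1 line per pair of peak and transcript, with positions, a distance from peak centre to TSS and a score, per the file headers. The score deposited by the authors was recomputed from the distance alone (largest error 4.99989e-13) and was not used. Per the submitters' processing notes, the tools were BWA 0.7.10, MACS2 2.1.1 and SAMtools and the build was hg19; their settings and any use of the inputs in peak calling are not given in the sources used here. Libraries were grouped by their titles, and the inputs were not analysed here.

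Distinct peaks were taken by chromosome, start and end, with starts read as counted from 0 and printed as counted from 1. Classes used an overlap of at least 1 bp, a window of 5 kb and a limit of 2-fold in width. Peak widths and overlaps were computed with Python 3.11.15, pandas 2.3.3 and numpy 2.4.6. The class rules were run on simulated promoters built to meet each class, with at most 1 parental peak. This checks the code and does not show how well the classes describe real promoters. Shares carry Wilson 95% intervals, which cover counting error only, since genes and neighbouring peaks are not independent. Peaks hold no read counts, so depth is unknown.

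RefSeq promoters (GRCh38.p14, 250 bases upstream and 50 downstream) were matched by symbol, older name or accession for 9234 of 10799 marked coding genes off chromosome 8 (85.5%); this restriction was chosen after the share matched was seen, and no coordinates of that build are printed. A class with sequence for under 80% of its genes was not read.

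The classes, the 28 gene lists and the markers were chosen with earlier results of these data known. Genes are named by a rule: KDM6B, up to 3 members of each list and class with the widest promoters, and the 6 widest of each class over all genes; markers, lost and gained members of short lists and other genes of small counts are also named, chosen after their values were seen. The alternatives tried were other windows, nearest gene only, peaks that span the TSS only, peaks of at least 300 bp, equal list lengths, joined neighbouring peaks, other width limits, and leaving out chromosomes X and 5, the last chosen after seeing the data. Some genes that the rule names are not reported here.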

Additional observations from a re-analysis of the deposited data

How the results depend on the processing

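No paired analysis was possible because each genotype has 1 library and no result comes from a test. The median log2 width ratio was between -1.14 and -0.91 under every setting it was computed with, against -1.01 as reported, and lost genes numbered 3564 with peaks of at least 300 bp, against 1709. With peaks that span the TSS only they numbered 2229, close to 1709, but of 3090 genes, so the lost share was 72.1% against 13.2%. The counts of the other classes depended more on the rules. Gained genes numbered 274 with a window of 1 kb, 275 with the nearest gene only, 108 with peaks of at least 300 bp and 346 with lists of equal length, against 178. Kept genes numbered 297 with peaks that span the TSS only, 3768 with neighbouring peaks joined, 1112 with a width limit of 1.5-fold and 3591 with 3-fold, against 2147. Split genes numbered 420 with peaks that span the TSS only, 1544 with peaks of at least 300 bp and 3599 with neighbouring peaks joined, against 5540. Narrowed genes numbered 115 with peaks that span the TSS only and 1762 with a limit of 3-fold, against 3185. Widened genes numbered 112 with a window of 1 kb, 20 with peaks that span the TSS only, 18 with peaks of at least 300 bp, 72 with a limit of 1.5-fold and 11 with 3-fold, against 32. Fewer genes and peaks enter the settings that drop peaks; beyond that the cause was not tested. Without chromosomes X and 5 no class count moved by over 1.5 times.

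The sign of the knockout minus parental width turned for some named genes. With a window of 1 kb the difference was -121 bp for ATP6V1D and EIF2S1, 314 bp for BCL11A, 34 bp for CCND3, 354 bp for CD4, 677 bp for CSF2RB, 366 bp for ERCC5, -1516 bp for FDPS, 594 bp for GAPDH, 867 bp for HSPE1, -305 bp for IGLL1, 48 bp for IKBKG, 542 bp for LMNA, 1265 bp for SLC3A2 and 571 bp for TNF. With 10 kb it was 680 bp for HYOU1, -164 bp for MIR3620, -69 bp for MMP9 and -41 bp for SERPINB2. With peaks of at least 300 bp it was 331 bp for BIRC5, 334 bp for HYOU1, -185 bp for MED1 and -146 bp for NPC1. With equal list lengths it was 65 bp for BIRC5 and 37 bp for HYOU1, with neighbouring peaks joined 109 bp for BIRC5, with the nearest gene only 167 bp for IKBKG and -155 bp for NDUFB3, and with peaks that span the TSS only -1516 bp for FDPS, -90 bp for NPC1 and 571 bp for TNF. Of the 146 named genes, 94 stayed in their class with 1 kb, 132 with 10 kb, 91 with peaks of at least 300 bp and 19 with peaks that span the TSS only, where 105 were unmarked. Depth is unknown, so how far it limits the shorter knockout list cannot be told.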
